A study of Mus musculus with 13 samples.

Results

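The Z22 and J2 antibodies were compared on RNA precipitated from the mouse melanoma line Yumm1.7. The comparison used 8 of the 13 libraries of the study, 4 precipitated with Z22 and 4 with J2, which were paired by treatment. The pairs came from cells given DMSO, 10 µM ADAR1i-124 for 12 h, 1 µM 5-AZA-CdR for 72 h, or 5-AZA-CdR + ADAR1i-124. The combination was the same 5-AZA-CdR regimen followed by 12 h of 10 µM inhibitor, a dose that the labels of these libraries leave out. ADAR1i-124 is the inhibitor of A-to-I RNA editing that the study describes, and 5-AZA-CdR is a DNA methyltransferase inhibitor. All 8 libraries were made from RNA treated with DNase and with RNase I, an enzyme that degrades single-stranded RNA. A single library precipitated with IgG, whose treatment is not stated, gives the background. The count of each gene was scaled to a library total of 1000000 counts (CPM), and the 13898 of 54532 genes that averaged 1 CPM or more across the 8 libraries were tested. A difference is Z22 minus J2 on the log2(CPM + 0.5) scale throughout, so 1 stands for a doubling in Z22 and the value understates the change of genes with few reads. There was 1 library for each antibody and treatment. The 4 treatment pairs therefore stood in for replicates, and each error below is the SD over the 4 pairs.

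J2 binds double-stranded RNA of sufficient length regardless of its sequence, and the right-handed A-form is the usual shape of such RNA. Z22 was raised against the left-handed Z-form, which alternating purine and pyrimidine stretches rich in G and C adopt most readily. In cells the A-form is sensed by the helicase MDA5, encoded by Ifih1, and the Z-form by ZBP1, while ADAR1 converts adenosines of double-stranded RNA to inosines.

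The J2 libraries held 11767409 to 14396132 counts and the Z22 libraries 8167960 to 14663357, against 15324595 for IgG. The Z22 library from DMSO-treated cells stood apart from the other libraries. The ribosomal-RNA-like gene Gm42418 took 34.9% of its counts, against 10.6% to 15.8% in the other Z22 libraries and 15.8% to 18.9% in the J2 libraries, and mitochondrially encoded genes took 1.67%, against 4.94% to 7.25% in the other 7. The median difference over all genes was -0.79 in the DMSO pair, 0.0020 in the ADAR1i-124 pair, 0.12 in the 5-AZA-CdR pair and -0.10 in the combination pair. With TMM factors in place of library totals the same medians lay between -0.06 and 0.01. Differences are therefore read beside those of all genes, and results are also given without the DMSO pair. Of 7 melanocyte markers only Mitf reached a mean of 1 CPM, at 17.6 to 26.5 CPM in J2 and 9.68 to 28.2 CPM in Z22, and 6 did not (Sox10, Dct, Tyr, Tyrp1, Pmel and Mlana). Among the markers of other cell types, Axl and Sox9 of the neural crest-like list, Cd68 of 6 leukocyte markers, Pecam1 and Cdh5 of the endothelial list and Krt10 of the keratinocyte list reached that level.

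Across the genes, 1627 were higher with Z22 in all 4 pairs (11.7% of those tested) and 2744 were lower in all 4 (19.7%). With TMM factors the split was 2608 higher to 2573 lower, and 1480 of the 1627 and 2118 of the 2744 kept their direction in all 4 pairs. A difference of at least 2-fold in every pair was seen for 27 genes in the upward direction (0.194%) and for 24 in the downward direction (0.173%). No gene (0%) passed an adjusted p of 0.05 in edgeR's quasi-likelihood test with treatment as a block, in which the smallest adjusted p was 0.233. At an unadjusted p under 0.05 it gave 1602 genes, 826 higher and 776 lower, limma on the same design also called 0 genes, and the DESeq2 test called 642 higher and 273 lower. An exact sign-flip test of a single gene over 4 pairs cannot go below a two-sided p of 0.125.

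Without the DMSO pair the edgeR test called 415 genes higher with Z22 (2.99% of those tested) and 130 lower (0.935%). The DMSO pair, which took no part in that test, was then compared with it. Of the 415 genes, 346 were also higher in the DMSO pair (83.4%), against 23.1% of all genes, and with TMM factors 402 were (96.9%), against 47.7% of all genes. Of the 130 genes, 125 were also lower in the DMSO pair (96.2%), against 76.3% of all genes, and with TMM factors 120 were (92.3%), against 51.8%. Leaving out the ADAR1i-124, the 5-AZA-CdR or the combination pair gave 0 calls, so the calls rested on leaving out DMSO.

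**Figure D1:**
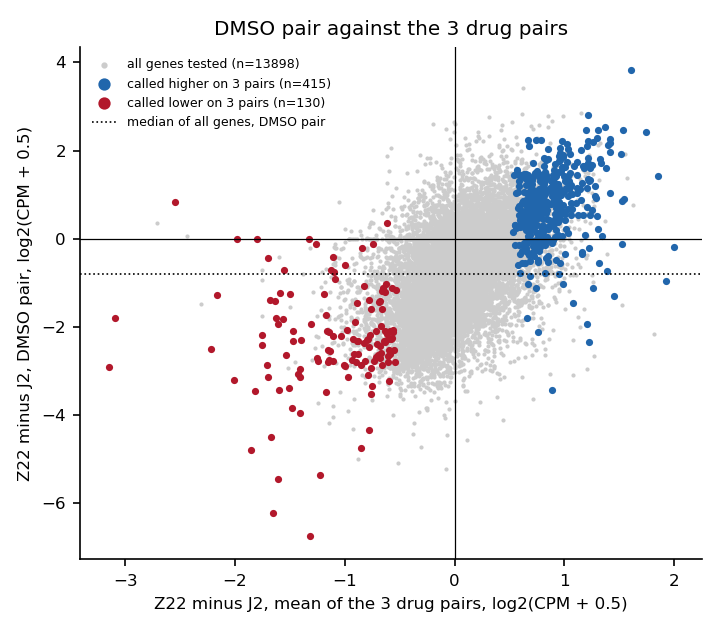
Difference between Z22 and J2 of each gene in the DMSO pair (y axis) against its mean over the 3 drug pairs (x axis), both on the log2(CPM + 0.5) scale. Grey points are the 13898 genes tested, blue points the 415 and red points the 130 genes called on the 3 drug pairs, and the dotted line marks the median of all genes in the DMSO pair (-0.79): 346 of the blue points lie above 0 and 125 of the red points below 0.

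The genes with the largest steady excess with Z22 encoded mostly long, GC-rich messengers. All 27 genes that were at least 2-fold higher in every pair were protein coding, with a median transcript length of 7482 nt and a median GC content of 59.0%, against 2930.5 nt and 49.1% for all genes tested. They were also well covered, at a median level of 156 CPM against 18.4 CPM for all genes. The 1627 genes higher in all 4 pairs had medians of 3867 nt and 56.2% GC. Each of the 27 was above the IgG library in all 4 Z22 libraries, as were 2990 of all 13898 genes, and 23 were above it in all 4 J2 libraries, as were 3759 of all genes. The 27 were picked for high levels in these same Z22 libraries, so their place above IgG is no separate support. The genes named below were picked for their differences in these pairs, so the adjusted p values printed beside them describe the genes and are no separate support.

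Plec encodes plectin, a giant linker of the cytoskeleton. Its level was 748, 1078, 731 and 1203 CPM with J2 and 3352, 3071, 1790 and 3304 CPM with Z22, in the order of DMSO, the inhibitor ADAR1i-124, 5-AZA-CdR and the combination, which is kept below. IgG gave 465 CPM. All Z22 values lay above all J2 values, and the mean difference was 1.61 ± 0.38 (adjusted p = 0.0150 without the DMSO pair). Kdm6b, a demethylase of histone H3, gave 77.6, 36.5, 58.4 and 96.6 CPM with J2 against 431, 106, 121 and 249 CPM with Z22, and its groups did not overlap either.

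Stretches of these 2 messengers are shown because they had among the largest mean differences of the coding genes that averaged 100 CPM or more and had the same direction in all 4 pairs, chosen after the values were seen. Each is the middle of the longest coding exon of the longest transcript, read from GRCm38 on the minus strand, and capitals mark CG dinucleotides. The Plec stretch lies in exon 33 of 33 (chr15:76175219-76175338, 55.8% GC) and the Kdm6b stretch in exon 11 of 23 (chr11:69405029-69405148, 65.0% GC).
Plec: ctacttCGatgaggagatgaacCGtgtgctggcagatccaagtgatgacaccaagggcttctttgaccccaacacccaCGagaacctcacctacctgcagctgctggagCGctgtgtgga
Kdm6b: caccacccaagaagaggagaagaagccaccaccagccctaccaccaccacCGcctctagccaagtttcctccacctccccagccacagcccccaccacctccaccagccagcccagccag

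The largest mean difference among genes averaging 10 CPM or more was that of Col1a1, a chain of type I collagen. It was read at 4.27, 0.278, 3.76 and 6.97 CPM with J2 and at 66.8, 1.64, 14.9 and 20.9 CPM with Z22, against 0.326 CPM with IgG (2.16 ± 1.12, adjusted p = 0.0213 without the DMSO pair). The ADAR1i-124 library was low with both antibodies, so the ranges overlapped, while Z22 was above J2 within every pair. Hivep3, a zinc finger transcription factor, gave 6.73, 9.72, 4.74 and 5.69 CPM with J2 and 37.9, 28.0, 20.8 and 20.01 CPM with Z22 (1.91 ± 0.40, adjusted p = 0.0125 without the DMSO pair). Its groups were well separated. Also among the 12 highest genes were Peg3, an imprinted zinc finger gene (1.74 ± 0.79), Ppp1r13l, which encodes the p53 inhibitor iASPP (1.62 ± 0.49), Mbd6, a methyl-CpG-binding domain protein (1.61 ± 0.80), Bcl9l, a coactivator of beta-catenin (1.58 ± 0.44), Nr4a1, an orphan nuclear receptor (1.58 ± 1.18), Nckap5l (1.56 ± 0.49) and Siglecg, a lectin that binds sialic acids (1.54 ± 0.99). Nr4a1 and Siglecg were the 2 of the 12 that were not called without the DMSO pair (adjusted p = 0.117 and 0.121). About 10.04% of the 31-base words of Siglecg and 0.770% or less of those of each of the other genes named here occurred elsewhere in the genome.

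**Figure D2:**
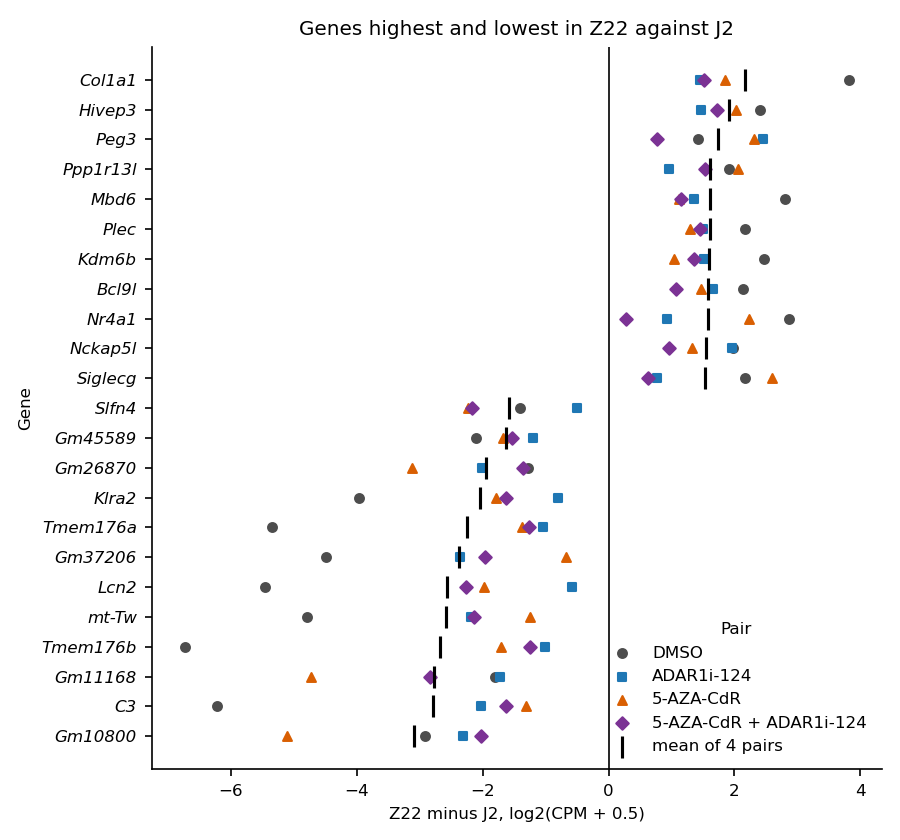
Difference between Z22 and J2 (x axis, log2(CPM + 0.5)) of 11 of the 12 genes with the highest and of the 12 with the lowest fitted difference among genes that averaged 10 CPM or more and had the same direction in all 4 pairs. Each symbol is 1 treatment pair and the vertical bar is the mean of the 4; all 44 symbols of the upper 11 genes lie above 0 and all 48 of the lower 12 below 0, and the DMSO pair is often the farthest from 0.

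The relation to GC content ran through the whole set of coding genes. Over the 11448 coding genes with a transcript sequence, the mean difference was larger at higher GC content of the transcript (Spearman's rho 0.61 across genes, which are not independent replicates), and rho was 0.55, 0.53, 0.27 and 0.54 in the single pairs. Of the 612 genes with at most 40% GC none was higher with Z22 in all 4 pairs and 58.0% were lower. Of the 476 genes above 60% GC, 45.6% were higher in all 4 pairs and 3.36% were lower. The share also differed with transcript length. Among genes above 55% GC, 12.7% of the 983 with a transcript of at most 2053 nt and 71.7% of the 375 with one of at least 4752 nt were higher in all 4 pairs. Length alone had a rho of 0.14 with the mean difference and of 0.03, 0.12, 0.33 and 0.06 in the single pairs.

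Sequence features known to favour the Z-form followed the difference less closely than GC content did. The number of CG dinucleotides per kb had a rho of 0.38, the number of CGCGCG or GCGCGC words per kb 0.12, and the longest run of alternating purines and pyrimidines -0.01. Against the IgG library, the difference of the Z22 libraries had a rho with GC content of 0.49, 0.38, 0.27 and 0.34, and that of the J2 libraries 0.13, -0.0039, 0.12 and 0.14; all 8 share the 1 IgG library.

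**Figure D3:**
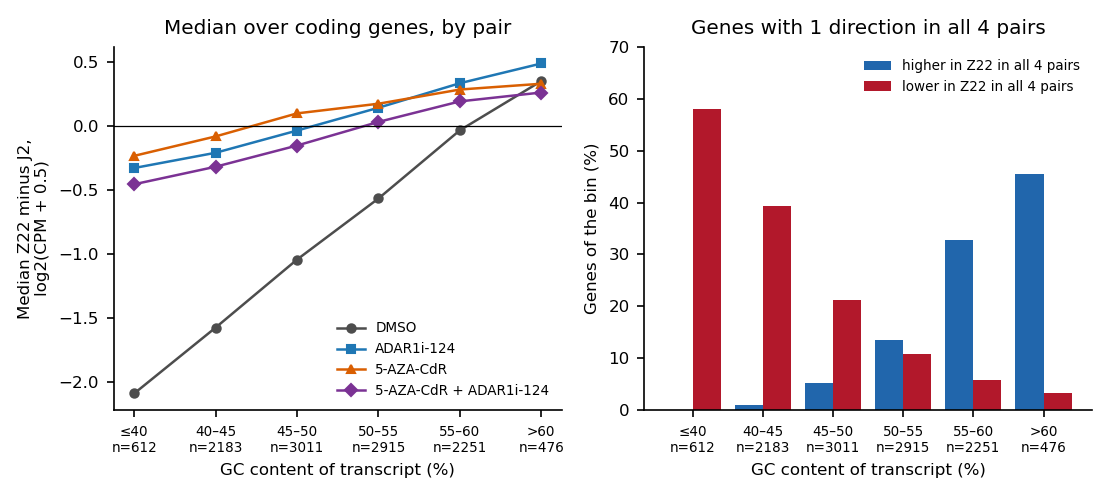
Left, median difference between Z22 and J2 (y axis, log2(CPM + 0.5)) of coding genes in 6 bins of transcript GC content (x axis, percent), with 1 line per treatment pair. Right, percent of the genes of each bin (y axis, from 0) that were higher or lower with Z22 in all 4 pairs: from the lowest to the highest bin the higher share goes from 0% to 45.6% and the lower share from 58.0% to 3.36%.

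The opposite end of the comparison held a family of repeat-derived genes. Gm10800 on chromosome 2 and Gm11168 and Gm26870 on chromosome 9 were 3 of the 12 lowest genes. Their sequence is that of the mouse major satellite, the tandem repeat of the chromatin around centromeres, which is densely methylated and normally silent. Together with these 3, 13 annotated genes shared at least 50 words of 31 bases with them. All 13 had counts, and 9 reached a mean of 1 CPM. Reads of near-identical copies cannot be assigned to 1 member with certainty, so the sum over the 13 is given first.

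The sum was 41.2, 59.2, 4967 and 3406 CPM with J2 and 15.1, 14.1, 316 and 1101 CPM with Z22, against 7.24 CPM with IgG. It was thus far higher in both libraries given 5-AZA-CdR than in the others with either antibody, and lower with Z22 than with J2 in every pair. The 5-AZA-CdR library exceeded the DMSO library 121-fold with J2 and 20.9-fold with Z22, and the combination library did so 82.7-fold and 72.8-fold. The Z22 sum was 0.367, 0.239, 0.0636 and 0.323 of the J2 sum in the 4 pairs, so the gap was widest with 5-AZA-CdR alone. These sums rest on 502, 852, 66056 and 40079 counts with J2 and 132, 207, 2579 and 10074 counts with Z22.

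Gm10800 had 6.73, 7.09, 2183 and 1082 CPM with J2 and 0.458, 1.02, 63.1 and 264 CPM with Z22, and IgG had 1.44 CPM. The Z22 values of the pairs without 5-AZA-CdR were below IgG. The mean difference was -3.09 ± 1.39 (adjusted p = 0.0336 without the DMSO pair). Gm11168 (-2.77 ± 1.40) and Gm26870 (-1.94 ± 0.85) had adjusted p values of 0.0125 and 0.0243 without the DMSO pair. All 9 members tested were lower with Z22 in the 5-AZA-CdR pair (median -4.74) and in the combination pair (median -1.98), 8 were lower in the ADAR1i-124 pair and 5 in the DMSO pair, where most members had few counts and 76.3% of all genes were lower. In all 4 pairs 4 of the 9 were lower, against 19.7% of all genes, and 5 were called lower without the DMSO pair, against 0.935%. Both counts include Gm10800, Gm11168 and Gm26870, from which the family was built because they were among the lowest genes in these pairs. Some members reached a mean of 1 CPM only through the J2 libraries given 5-AZA-CdR. Gm10719, for example, had 8.05 CPM with J2 in the 5-AZA-CdR pair and 6.2 CPM in the combination pair. Its J2 level was 0 CPM in the DMSO pair and 0.0695 CPM in the ADAR1i-124 pair. The lower values of all 9 in the pairs with 5-AZA-CdR are therefore partly set by that filter. Members also share reads, so these counts and shares are no separate support. The family was put together after these values were seen.

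The stretch of Gm10800 below lies in the coding part of exon 4 of 5 (GRCm38, chr2:98666827-98666946, minus strand, 36.7% GC), with CG dinucleotides, the sites of DNA methylation, in capitals. Of its 31-base words 56.5% occurred elsewhere in the genome, and of those of Gm11168 and Gm26870 80.9% and 66.4%.
Gm10800: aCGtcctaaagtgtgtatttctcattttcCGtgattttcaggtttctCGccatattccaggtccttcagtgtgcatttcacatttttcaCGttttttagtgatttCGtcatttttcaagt

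**Figure D4:**
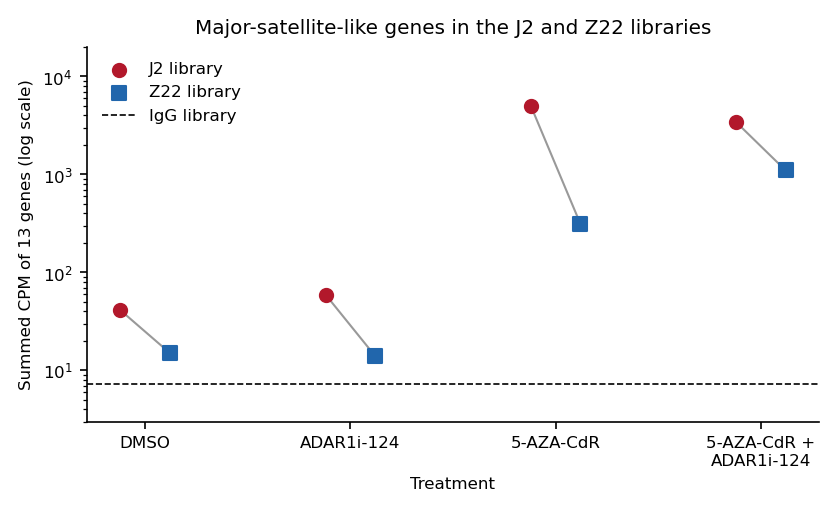
Summed level of the 13 major-satellite-like genes (y axis, CPM, log scale) in the J2 library (red circle) and the Z22 library (blue square) of each treatment (x axis), 1 library per point, with the IgG library as a dashed line (7.24 CPM). The Z22 point lies below the J2 point in each of the 4 pairs, and both points of the treatments with 5-AZA-CdR lie above 300 CPM.

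The protein-coding genes among the other lowest were C3, Lcn2, Tmem176b, Tmem176a, Klra2 and Slfn4. C3, the central component of complement, was read at 122, 6.53, 158 and 200 CPM with J2 and at 1.15, 1.23, 63.2 and 64.2 CPM with Z22, with 0.914 CPM in IgG (-2.80 ± 2.30, adjusted p = 0.0150 without the DMSO pair). Lcn2, which binds bacterial siderophores, had 76.7, 0.764, 143 and 280 CPM with J2 and 1.26, 0.341, 36.0 and 58.1 CPM with Z22 (-2.57 ± 2.06, adjusted p = 0.0125). Both genes were low in the ADAR1i-124 libraries of either antibody, and both had their widest gap in the DMSO pair. The membrane protein genes Tmem176b (-2.67 ± 2.72) and Tmem176a (-2.26 ± 2.07) had differences of -6.74 and -5.35 in the DMSO pair. Without that pair their means were -1.32 ± 0.36 and -1.22 ± 0.17 (SD over 3 pairs), and those of C3 and Lcn2 were -1.66 ± 0.36 and -1.61 ± 0.90. The lectin-like receptor gene Klra2 (-2.05 ± 1.35, and -1.41 ± 0.53 without the DMSO pair) and the schlafen gene Slfn4 (-1.58 ± 0.81) followed. Slfn4 had no count in the Z22 libraries of DMSO and ADAR1i-124, where 3 counts would be 0.344 and 0.205 CPM, and J2 had 0.821 and 0.208 CPM there. About 21.2% of its 31-base words occurred elsewhere in the genome, its paralog Slfn3 sharing the most.

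The remaining members of the 12 were Gm37206 (-2.37 ± 1.58), Gm45589 (-1.63 ± 0.38) and the mitochondrial mt-Tw. All 31-base words of Gm37206 were also in transcripts of other genes, above all Rbm4b, so its reads cannot be assigned with certainty. Of the 24 genes that were at least 2-fold lower in every pair, 9 were protein coding, and their median GC content was 38.8%. All 24 were above IgG in all 4 J2 libraries, against 3759 of all 13898 genes, and 6 of the 24 were in all 4 Z22 libraries, against 2990 of all genes. The 24 were picked for J2 levels well above Z22 in these same libraries, so their place above IgG is no separate support.

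Mitochondrially encoded RNAs, which are copied from both strands of a circular genome and so can pair, were lower with Z22 in 3 of the pairs. Of 37 genes 20 were tested, and 9 were lower in all 4 pairs (45%, against 19.7% of all genes) and none was higher. Their medians were -2.68, -0.53, 0.16 and -0.54, against -0.79, 0.0020, 0.12 and -0.10 for all genes, and in the 5-AZA-CdR pair 11 of the 20 were higher. The 9 were both ribosomal RNAs, mt-Co3, mt-Nd6 and all 5 transfer RNAs tested. The transfer RNAs had medians of -2.87, -1.90, -1.20 and -1.80, the lowest of any biotype with at least 5 genes tested, and all 5 were called without the DMSO pair, as were 0.935% of all genes; with TMM factors 4 of the 5 were lower in all 4 pairs. The 5 were those of 22 mitochondrial transfer RNA genes, 18 of them with a count, that averaged 1 CPM or more. Some reached that mean only through J2, such as mt-Tm. It had 4.76, 6.32, 4.44 and 2.63 CPM with J2 and 0, 1.43, 1.22 and 0.875 CPM with Z22. The low values of the 5 are therefore partly set by that filter, and their shares are no separate support. Transfer RNAs lie within longer precursors, and reads of the 2 forms cannot be told apart in a count per gene.

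mt-Tw, the transfer RNA for tryptophan, had 51.2, 24.7, 14.3 and 19.97 CPM with J2 and 1.38, 5.05, 5.75 and 4.15 CPM with Z22, and 9.20 CPM with IgG (-2.59 ± 1.53, adjusted p = 0.0178 without the DMSO pair). Every J2 value was above IgG and every Z22 value below it. mt-Nd6, a subunit of complex I and the only protein encoded on the light strand, was added after its values were seen. It had 337, 478, 487 and 542 CPM with J2 and 207, 162, 205 and 148 CPM with Z22, without overlap, against 171 CPM with IgG (-1.35 ± 0.50, adjusted p = 0.0125 without the DMSO pair). Of the messengers from the other strand, mt-Co1 had differences of -3.31, -0.27, 0.64 and -0.13 and mt-Nd1 of -2.78, -0.42, 0.98 and -0.44, so both were above 0 in the 5-AZA-CdR pair. The 67-base mt-Tw gene (GRCm38, chrM:4950-5016, plus strand, 40.3% GC) is printed whole as the lowest of the transfer RNAs, with CG dinucleotides in capitals. All 37 of its 31-base words also occurred elsewhere in the genome, at a median of 2 copies, so its reads cannot be assigned to the mitochondrial copy with certainty.
mt-Tw: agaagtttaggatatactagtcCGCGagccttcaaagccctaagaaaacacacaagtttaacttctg

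Among the annotated biotypes, protein-coding genes made up 1530 of the 1627 genes higher with Z22 in all 4 pairs and 2313 of the 2744 lower ones, for 11454 of the 13898 tested. Genes of the class TEC, unspliced loci whose status awaits experiments, were lower in all 4 pairs in 135 of 755 cases (17.9%) and higher in 12 (1.59%), against 19.7% and 11.7% of all genes. With TMM factors 161 were lower and 40 higher. Their medians were -1.46, -0.29, 0.48 and -0.50, so the 5-AZA-CdR pair went the other way. The 121 sense-intronic genes showed the same order of values, -1.43, -0.35, 0.46 and -0.58. Long intergenic noncoding RNAs had medians of -0.83, -0.10, 0.18 and -0.25 (58 of 273 lower in all 4 pairs, 21.2%, and 15 higher) and processed pseudogenes of -0.49, -0.16, 0.01 and 0.02 (100 of 719 lower, 13.9%, and 36 higher). Small nuclear RNAs had -1.91, 0.19, -0.88 and 0.15 and small nucleolar RNAs -1.42, -0.17, -0.43 and 0.24.

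**Figure D5:**
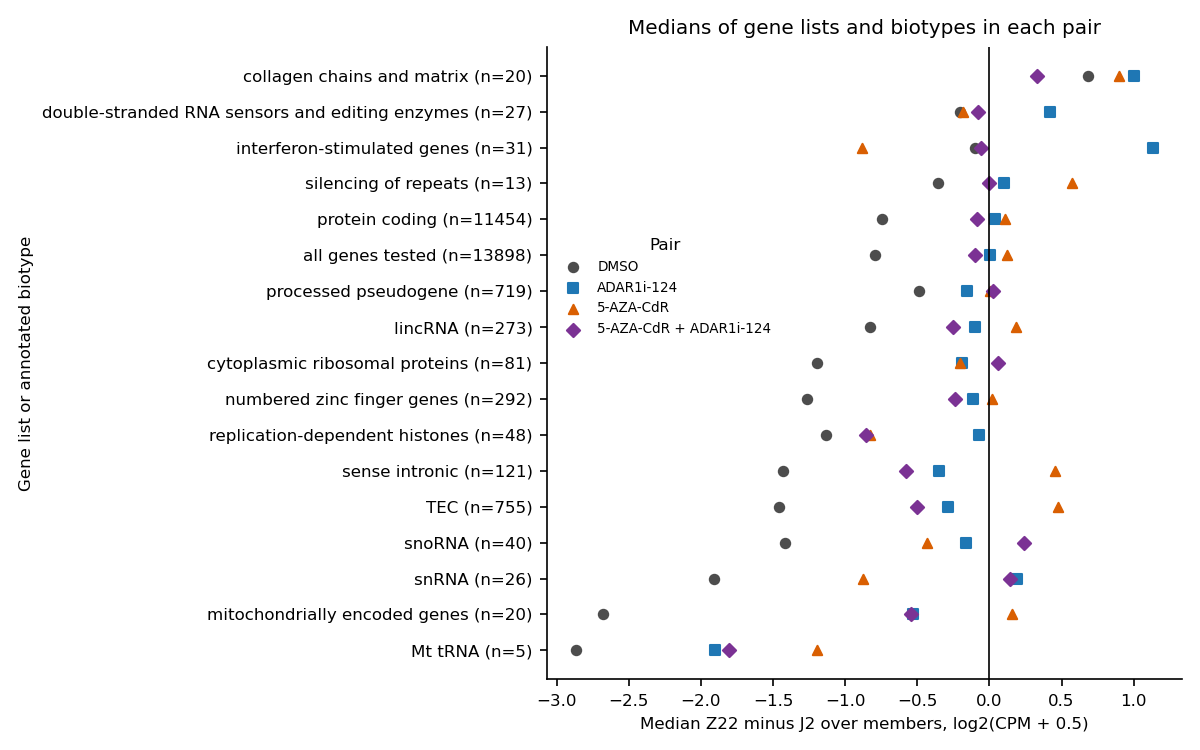
Median difference between Z22 and J2 (x axis, log2(CPM + 0.5)) over the tested members of gene lists and annotated biotypes (y axis, with the number of genes tested), with 1 symbol per treatment pair. The collagen and matrix list lies right of 0 in all 4 pairs and the mitochondrial transfer RNAs left of 0 in all 4, while the DMSO pair is left of 0 for all genes tested (-0.79).

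The collagen and matrix genes had medians above those of all genes in each pair. Of 20 genes, 10 were higher with Z22 in all 4 pairs (50%, against 11.7% of all genes) and none was lower, with medians of 0.68, 1.01, 0.90 and 0.33, and 4 were called higher without the DMSO pair, as were 2.99% of all genes. Hspg2, the heparan sulfate proteoglycan perlecan, had 763, 405, 285 and 456 CPM with J2 and 2500.0, 1148, 759.9 and 965 CPM with Z22 (1.43 ± 0.26, adjusted p = 0.0150 without the DMSO pair). The basement membrane collagens Col4a2 (1.32 ± 0.83) and Col4a1 (1.16 ± 0.91) and the fibrillar Col5a1 (1.22 ± 0.59) followed Col1a1 and Hspg2, whereas Col3a1 (-0.11 ± 0.44) and Sparc (0.08 ± 0.19) differed by less than their spread. The median GC content of the list was 54.0%, above the 49.1% of all genes.

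Messengers of the double-stranded RNA sensors and editing enzymes had no common direction across the pairs. Of 27 genes 2 were higher with Z22 in all 4 pairs, Oasl1 (0.76 ± 0.48) and Drosha (0.61 ± 0.21), and none was lower, against 11.7% higher and 19.7% lower among all genes. With TMM factors 4 were higher and 1 was lower in all 4 pairs, and Oasl1 was no longer among the higher ones. The list had medians of -0.21, 0.42, -0.18 and -0.08, and 21 of the 27 were higher in the ADAR1i-124 pair, as were 50.2% of all genes. Single genes differed widely and in both directions, as with Zbp1 at -1.18, 1.39, -1.73 and -0.39 and Oasl2 at 1.06, 1.46, -0.58 and -0.29. Adar itself had 176, 83.3, 255 and 243 CPM with J2 and 149, 125, 241 and 285 CPM with Z22 (0.12 ± 0.36). Ifih1 (0.26 ± 0.60), Zbp1 (-0.48 ± 1.36), Ddx58 (-0.32 ± 0.54), which encodes RIG-I, and Eif2ak2 (0.0036 ± 0.47), which encodes PKR, all had a mean difference below the spread over pairs. These are the messengers of the sensors, not the RNAs that the sensors bind.

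Interferon-stimulated genes had medians of -0.10, 1.14, -0.88 and -0.06 over 31 genes, and 2 were higher (6.45%) and 1 lower (3.23%) in all 4 pairs, against 11.7% and 19.7% of all genes, and with TMM factors 1 was higher and 1 lower. The J2 library of the ADAR1i-124 pair had the lowest level of the 4 J2 libraries in all 31 genes, and the Z22 library of that pair the lowest of the 4 Z22 libraries in 26 of the 31. Ifit3 had 327, 18.3, 813 and 639.8 CPM with J2 and 595, 148, 302 and 629.7 CPM with Z22. The 3 hosts of hyper-edited sites had differences of -1.15 ± 0.62 (Wdr76), -0.58 ± 0.49 (Gnl3l) and -0.17 ± 0.20 (Iws1), and the first 2 were lower in all 4 pairs. Of 13 transcripts recoded by ADAR enzymes 2 were higher in all 4 pairs (15.4%) and 3 lower (23.1%), and with TMM factors 4 higher and 3 lower. Flna, the filamin A messenger, had 0.62 ± 0.50 and Azin1, an antizyme inhibitor, -0.85 ± 0.91.

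Replication-dependent histone genes, whose short messengers end in a stem-loop, were lower with Z22 in all 4 pairs in 24 of 48 cases (50%, against 19.7% of all genes) and higher in 1, with medians of -1.13, -0.07, -0.83 and -0.85. Hist1h2bb had 34.3, 106, 32.2 and 15.6 CPM with J2 and 2.64, 55.9, 14.2 and 5.47 CPM with Z22 (-1.74 ± 1.17, adjusted p = 0.0202 without the DMSO pair). Cytoplasmic ribosomal protein genes had medians of -1.19, -0.19, -0.20 and 0.06 (17 of 81 lower in all 4 pairs, 20.99%, and 1 higher). With TMM factors 4 of the 81 were lower and none was higher, for 2573 lower and 2608 higher among all 13898 genes. The numbered zinc finger genes had medians of -1.26, -0.11, 0.02 and -0.24 (90 of 292 lower, 30.8%, and 37 higher, 12.7%, or 105 and 50 with TMM factors), against -0.79, 0.0020, 0.12 and -0.10 for all genes. Zfp626 was at the lower end with 23.5, 33.8, 30.6 and 33.1 CPM with J2 and 2.98, 14.3, 14.9 and 13.9 CPM with Z22, and Zfp609 at the upper end with 114, 92.2, 88.1 and 105 CPM against 252, 177, 192 and 158 CPM. The housekeeping messengers gave 2 of 14 lower in all 4 pairs (14.3%) and none higher, but with TMM factors 2 lower and 4 higher. Of 13 genes that silence repeats 3 were higher and none lower, and with TMM factors 4 were higher. Of all genes, 11.7% were higher and 19.7% lower.

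Structured and nuclear noncoding RNAs were not of 1 kind. Of 6 structured RNAs tested 1 was lower in all 4 pairs (16.7%, against 19.7% of all genes) and none was higher. Rn7sk, the RNA that restrains the elongation factor P-TEFb, had 3947, 4503, 4973 and 4401 CPM with J2 and 630.2, 3460.1, 3317 and 6697 CPM with Z22 (-0.75 ± 1.37). Of 13 nuclear long noncoding RNAs 2 were lower in all 4 pairs (15.4%), Dleu2 (-1.47 ± 0.97, adjusted p = 0.0244 without the DMSO pair) and Tug1 (-0.99 ± 1.08). Tug1 had -2.61 in the DMSO pair and a mean of -0.45 ± 0.08 over the other 3, and it was not called without the DMSO pair (adjusted p = 0.0746). Neat1, the scaffold of paraspeckles, had 2410.0, 521, 652 and 935 CPM with J2 and 476, 780.4, 2169 and 2408 CPM with Z22, so it was lower in the DMSO pair and higher in the other 3 (0.33 ± 1.85, adjusted p = 0.0368 without the DMSO pair). Of the ribosomal-RNA-like loci, Gm42418 did not differ in 1 direction (0.0048 ± 0.66), and Gm26917 was higher in 3 pairs (1.13 ± 0.98).

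Whether the difference between Z22 and J2 itself depended on a drug was tested with interaction terms. The edgeR fit called 0 genes for ADAR1i-124 (202 at an unadjusted p under 0.05, smallest adjusted p 0.994) and 0 genes for 5-AZA-CdR (104, smallest adjusted p 0.927), and limma called 0 for both. DESeq2 called 25 and 4. On simulated counts with 200 genes changed 4-fold, the edgeR interaction test called 16 of them for ADAR1i-124 and 11 for 5-AZA-CdR. The 0 calls therefore do not show that the difference was the same with and without a drug. Each term set 2 pairs against 2, with the Z22 library from DMSO-treated cells among those without drug. The gap in the major-satellite-like genes was widest with 5-AZA-CdR alone, with a Z22 sum of 0.0636 of the J2 sum against 0.323 in the combination pair. The 5-AZA-CdR term pools these 2 pairs and so does not address that gap, and the family sum was not fitted. The gap was therefore not shown to depend on the drug.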

How the data were processed

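RNA of Yumm1.7 cells was extracted, digested with RNase I and DNase, precipitated with the J2, Z22 or IgG antibody, depleted of ribosomal RNA and sequenced in read pairs. The authors aligned the reads with STAR in snakePipes 2.8.0 to the mouse genome mm10 and deposited raw counts per gene; the counting tool and its strand setting are not given in the sources used here, so reads of overlapping and antisense genes cannot be told apart. No other column was left unused for want of a sample, and the total RNA libraries were not analysed here.

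Ensembl identifiers were matched to GENCODE M21 on GRCm38 (54495 of 54532; 37 had no match), and 111 genes that shared a symbol with a better-covered gene kept their identifier. Counts were scaled to the column sum. The 13898 genes that averaged 1 CPM or more were fitted with edgeR's quasi-likelihood test (version 4.0.16) with treatment as a block and Benjamini-Hochberg adjustment over all of them; limma and DESeq2 were alternatives. The code was tested on simulated data. Nothing states that the libraries came from separate cultures, so a p-value measures how steady a difference was over the 4 treatments. Counting error was not set against that spread. Some named values rest on few counts, such as 1 and 2 for Gm11168 in the Z22 libraries of DMSO and ADAR1i-124. In the libraries compared 3 counts stand for 0.205 to 0.367 CPM, and intervals and floors cover counting error only.

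The pairing comes from the treatment named in the labels, not from replicate numbers. Named genes were to be the 12 highest and 12 lowest by fitted difference among genes with an adjusted p under 0.05, an average of 10 CPM or more and the same direction in all 4 pairs, plus members of fixed lists. No gene passed that p, so the same ranking was used without it, a choice made after the results were seen. A member of this ranking is not reported here. The pairs, gene lists and tests were chosen with earlier results of these data known. GC content and length were taken from the longest transcript. Shared 31-base words were counted over the GRCm38 chromosomes.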

Additional observations from a re-analysis of the deposited data

Results flagged for a closer look

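In a group of 4 libraries, a value is listed here when its gap to the nearest other value is most of the range; 73 groups were examined, chance flags about 1 in 20 of them, and 3 were flagged. The Z22 library of ADAR1i-124 had the highest total of its group, 14663357 counts, against 8167960 to 9146858 in the other 3. Ppp1r13l was low in the J2 library of 5-AZA-CdR, at 2.78 CPM against 5.78 to 6.24 CPM in the other 3. The median difference of the transcripts recoded by ADAR enzymes was -1.15 in the DMSO pair, against 0.05 to 0.18 in the other pairs; the median of all genes in that pair was -0.79.

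Among lists and biotypes with at least 10 genes tested, there were 4 in which the 2 pairs with a drug lay on one side of the median of all genes and the 2 pairs without it on the other; these differences were not tested. With minus without 5-AZA-CdR, the median relative to all genes differed by 0.31 for the housekeeping messengers and by -0.73 for polymorphic pseudogenes. With minus without ADAR1i-124, it differed by -0.18 for antisense genes and by 1.28 for small nuclear RNAs.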

How the results depend on the processing

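The edgeR fit with treatment as a block called 0 genes in either direction, and so did TMM or DESeq2 size factors, totals without the 20 highest genes, limma, a minimum of 5 CPM and a fit with no treatment block. The DESeq2 test called 642 higher and 273 lower, and the fit without a filter on low counts called 144 and 237, of which 361 of 381 in all had a mean of at least 1 CPM. Leaving out 1 pair gave 0 to 415 higher and 0 to 130 lower, and every call came from leaving out DMSO. Interaction calls were 25 (ADAR1i-124) and 4 (5-AZA-CdR) with DESeq2 and 11 and 6 without a filter. Leaving out 1 pair gave 0 to 5896 for ADAR1i-124, the highest without the 5-AZA-CdR pair, and 0 to 4308 for 5-AZA-CdR, the highest without the ADAR1i-124 pair; in both cases DMSO was then the only pair without the drug. Genes higher in all 4 pairs numbered 2608 with TMM factors, 2599 with DESeq2 size factors, 2690 relative to the median of each pair and 27 at 2-fold or more, and 1835 to 3325 with 1 pair left out, the highest without DMSO. Genes lower in all 4 numbered 24 at 2-fold or more and 2934 to 4987 with 1 pair left out, the highest without 5-AZA-CdR. The cause of these changes was not tested. Of the 261 values for lists and single genes, 73 changed sign under at least 1 alternative, most often without the DMSO pair (38), and in none of these changes was the value called in the fit on all 4 pairs or under the alternative that turned its sign. The median of the interferon-stimulated genes ranged from -0.35 to 0.36, that of the transcripts recoded by ADAR enzymes from -0.32 to 0.16 and the difference of Neat1 from -0.13 to 1.23. Over all alternatives 134 values passed the threshold only with DESeq2, without a filter or without the DMSO pair, and 3 list medians moved by more than the spread. No paired analysis by replicate number because the labels number no replicates; pairs were formed by treatment.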

Other observations

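Among the 27 genes at least 2-fold higher with Z22 in every pair, some had nearly the same difference in all 4 pairs on the scale of library totals, and they are named here after their values were seen. Zmiz1, a transcriptional coregulator, had 128, 77.3, 89.0 and 113 CPM with J2 and 256, 166, 185 and 235 CPM with Z22 (1.05 ± 0.04, SD over 4 pairs). Spen, a large RNA-binding repressor that acts with Xist, had 111, 86.7, 81.9 and 121 CPM with J2 and 266, 187, 186 and 279 CPM with Z22 (1.19 ± 0.06). Prrc2b (1.09 ± 0.09) and Soga1 (1.19 ± 0.11) were similarly steady. With TMM factors they were not, since Zmiz1 then had 1.85, 1.09, 0.89 and 1.17 and Spen 2.10, 1.09, 1.02 and 1.33, each highest in the DMSO pair. Kmt2d and Setd1b, which methylate lysine 4 of histone H3, had 1.44 ± 0.26 and 1.43 ± 0.46, and the mechanosensitive channel Piezo1 had 1.30 ± 0.23. The actin crosslinker Flnc (1.44 ± 0.23) was read at 415, 759, 376 and 502 CPM with J2 and 1262, 1733, 1194 and 1220 CPM with Z22, without overlap.

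At the lower end, well-covered messengers outside the 12 lowest were chosen in the same way, among genes that averaged 100 CPM or more. The protease Mmp10 had 22.98, 60.9, 354 and 302 CPM with J2 and 0.802, 42.8, 87.3 and 160 CPM with Z22 (-1.90 ± 1.64), and the chemokine Cxcl1 129, 66.8, 320 and 375 CPM against 7.33, 34.7, 80.6 and 284 CPM (-1.84 ± 1.61). The chemokine Ccl2 (-1.48 ± 1.58) and B2m, the light chain of MHC class I (-1.18 ± 1.18), were also lower in all 4 pairs, with the widest gap in the DMSO pair in each of these 4 genes. Their adjusted p without the DMSO pair was 0.0589, 0.0702, 0.159 and 0.0663 in the edgeR test.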
